A study of Homo sapiens with 16 samples.

Results

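The genes described here are 9 regulators of the p53 pathway, the cell cycle and senescence, namely CDKN1A, MDM2, GADD45A, TP53I3, CDKN1B, CDKN2A, CDKN2B, RB1 and LMNB1. They were chosen by symbol, and they are 9 of the 40663 symbols in a table of bulk RNA-seq counts from 16 libraries of Ccd18-Co, an established line of human colon fibroblasts. The libraries fell into 4 groups of 4. Unstimulated cells received the vehicle DMSO and no cytokines, and their columns in the table carry the word none in place of DMSO. The other groups received 3 cytokine pulses, each of 72 h and followed by a recovery of 96 h, in which OSM, TNF and IL-17A were at 10 ng/ml and IL-1B at 0.1 ng/ml. They then rested for 1 week and were exposed for 5 days to DMSO (here called vehicle), to belinostat at 250 nM or to GSK-J4 at 10 µM, and RNA was taken 2 weeks after that exposure ended. These doses are the ones in the labels, and the study's text gives other concentrations of IL-1B, belinostat and the panel of compounds in places, so the doses behind the values are uncertain. Belinostat inhibits histone deacetylases, and GSK-J4 inhibits the demethylases that remove methyl groups from lysine 27 of histone H3. All the cells came from a single established line grown in wells of culture plates, and the labels do not say that the replicates of a group were started or passaged separately. The study's text calls bulk RNA-seq samples of this setting biological replicates, gives fewer a group than there are libraries here, and does not say what set them apart, so the p-values measure the spread between these samples, which may be technical.

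The transcription factor p53 is stabilised by DNA damage and other stress and then switches on genes that halt the cell cycle, repair DNA or trigger cell death. The halt runs through proteins that block cyclin-dependent kinases, which keeps the retinoblastoma protein RB1 in the form that holds back genes of DNA replication. Fibroblasts that stay arrested can become senescent, a state known for higher CDKN1A and CDKN2A, lower LMNB1 and the release of cytokines and proteases.

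Libraries held 14.4 to 19.5 M estimated counts. Values below are normalized counts, that is, counts divided by DESeq2's size factors, and they compare a gene between libraries, not genes with each other. A gene was called where DESeq2's adjusted p was under 0.05 over all genes tested. All 8 fibroblast markers averaged at least 10 normalized counts in every group. Their summed level ran from 470588 to 495265 in unstimulated cells, 479214 to 514394 in vehicle, 413899 to 494624 under belinostat and 518261 to 554480 under GSK-J4, and its part in the results below was not tested. The 5 epithelial markers summed to at most 18.7 normalized counts in any library and the 4 markers of glia and neurons to at most 3.05, and the 4 endothelial markers summed to 19.6 to 41.7. Of the leukocyte markers CD3E was at 0 in every library while CD14 averaged 71.8 in unstimulated cells, 140.9 in vehicle, 195.7 under belinostat and 105.7 under GSK-J4. Belinostat replicate 17 stood apart from its group, with the lowest mean correlation to its group mates of the 16 libraries (0.9957 across genes). In comparisons that include belinostat, results that rest on it are given with and without it. All 16 libraries shared the main DESeq2 fit, so this library also enters the spread used in the other comparisons. Those were not refitted with only this library left out, and its part in their calls was not tested.

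All 9 genes were tested in each of 6 comparisons. In vehicle against unstimulated cells, which asks what the cytokine pulses had left behind, none was called by DESeq2 or by edgeR, where 1.74% of all tested genes were called. The unadjusted DESeq2 p was 0.00196 for MDM2 and 0.00411 for CDKN2A, and both were without overlap between the groups, as were 6.93% of all tested genes. In belinostat against vehicle none was called either by DESeq2 or by edgeR, against 6.26% of all tested genes, the lowest unadjusted p was 0.0194, for CDKN2B, and 0 of the 9 were without overlap, against 11.4% of all tested genes. In GSK-J4 against vehicle 3 of the 9 were called, CDKN1A and MDM2 higher and CDKN2B lower, against 1.92% of all tested genes. The groups did not overlap for 6 of the 9 there, against 10.0% of all tested genes. Belinostat against GSK-J4 called 3 of the 9 against 12.2% of all tested genes, with 2 of the 9 and 17.0% of all tested genes free of overlap. Against unstimulated cells belinostat called 2 of the 9 (10.3% of all tested genes), with 1 of the 9 free of overlap (12.3% of all), and GSK-J4 called 4 (5.55% of all), with 5 of the 9 free of overlap (11.9% of all). Both compounds were compared with the same vehicle libraries, so their values are given side by side.

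**Figure D1:**
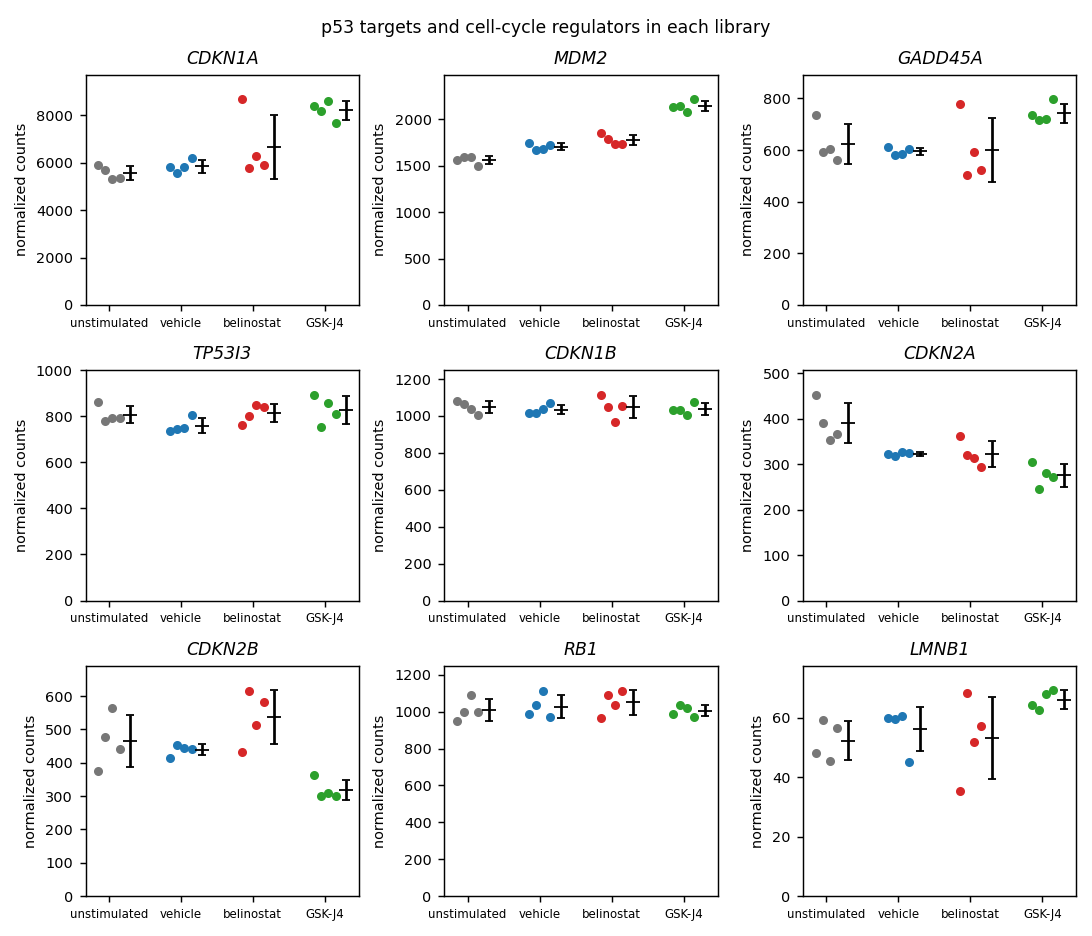
Normalized counts (vertical axes, starting at 0) of the 9 genes in each of the 16 libraries, by group, with the mean and SD of the 4 libraries beside the points. CDKN1A and MDM2 sit higher in the 4 GSK-J4 libraries than in vehicle and CDKN2B sits lower, while 1 belinostat library, replicate 17, reaches 8676 for CDKN1A and 777 for GADD45A.

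CDKN1A and MDM2 are the genes that rose together, and the 250 bases before their RefSeq starts are shown because the sites in these windows differ. Each line gives the 250 bases before the RefSeq start, read 5′ to 3′ on the plus strand of GRCh38.p14, with capitals marking matches to the GC box (GGGCGG, searched on both strands), the motif that Sp1 binds, and to the p53 response element, a site of 20 bases searched on both strands with up to 3 mismatches allowed.
CDKN1A chr6:36678464-36678713: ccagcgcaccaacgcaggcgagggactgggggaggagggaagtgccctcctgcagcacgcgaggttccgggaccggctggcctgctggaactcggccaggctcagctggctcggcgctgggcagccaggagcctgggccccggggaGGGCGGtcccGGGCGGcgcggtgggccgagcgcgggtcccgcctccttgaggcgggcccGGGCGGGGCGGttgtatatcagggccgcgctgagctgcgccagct
MDM2 chr12:68808774-68809023: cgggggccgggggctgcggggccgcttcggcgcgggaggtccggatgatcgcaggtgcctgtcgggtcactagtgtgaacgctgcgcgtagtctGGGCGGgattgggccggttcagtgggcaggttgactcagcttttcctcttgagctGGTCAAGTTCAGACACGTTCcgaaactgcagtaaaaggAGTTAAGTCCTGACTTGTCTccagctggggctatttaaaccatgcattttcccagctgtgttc
The CDKN1A window held 4 GC boxes, the last pair of which overlap, and no p53 site. The MDM2 window held 1 GC box followed by 2 p53 sites, none of them overlapping. Of 35116 windows of this length in the RefSeq table, 42.6% held a GC box and 4.36% a p53 site. A RefSeq window was found for 8 of the 9 genes, and 6 of these held a GC box and 4 a p53 site. RefSeq's table gives 1 start a gene, and 7 of the 8 windows lie inside the span that GENCODE gives the gene, with CDKN1A's start 2.25 kb and MDM2's 0.847 kb from the first annotated base. RB1's window, 1 of the 4 with a p53 site, precedes a start 173 kb inside the gene. These matches describe the letters in the window and say nothing about binding. Bases outside the 250 were not searched, so a window without a p53 site does not mean a gene without one.

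CDKN1A (ENSG00000124762.14, chr6:36676460-36687337, GRCh38) encodes p21, the inhibitor of cyclin-dependent kinases that carries out most of the arrest ordered by p53. It was measured at 5902, 5683, 5317 and 5341 normalized counts in unstimulated replicates 1 to 4 and at 5801, 5581, 5801 and 6207 in vehicle replicates 13 to 16. Under belinostat it was 8676, 5772, 6275 and 5902 in replicates 17 to 20. In the GSK-J4 libraries it was 8393, 8180, 8605 and 7662 in replicates 21 to 24. Every GSK-J4 library was above every vehicle and unstimulated library, whereas 3 belinostat libraries lay within or just above the vehicle range and the remaining belinostat library was the highest of all 16. The means were 5561 ± 283 in unstimulated cells, 5847 ± 261 in vehicle, 6656 ± 1364 under belinostat and 8210 ± 404.5 under GSK-J4 (SD, n = 4 each).

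Against vehicle, CDKN1A rose 1.40-fold under GSK-J4 (interval at 95% 1.23 to 1.61, log2 fold change 0.49, SE 0.10, DESeq2 adjusted p 0.000258, edgeR adjusted p 0.0279), and it was called under all 13 other settings. Under belinostat its log2 fold change was 0.19 (SE 0.10, DESeq2 adjusted p 0.355), and this value was 0.03 without belinostat replicate 17. In the order of the group means, unstimulated cells and vehicle did not differ beyond their spread (log2 fold change 0.07, SE 0.10, DESeq2 adjusted p 0.96), nor did vehicle and belinostat. Belinostat against GSK-J4 gave a log2 difference of -0.30 (SE 0.10, DESeq2 adjusted p 0.0249). That call was lost under 8 of the 13 other settings, edgeR among them (adjusted p 0.0578). It was lost without belinostat replicate 18 (-0.24), 19 (-0.28) or 20 (-0.25) or GSK-J4 replicate 21 (-0.29), 22 (-0.30) or 23 (-0.28), and in a fit of these 2 groups alone (-0.30). Without belinostat replicate 17 the log2 fold change was -0.46 (DESeq2 adjusted p 9.42e-15).

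MDM2 (ENSG00000135679.27, chr12:68808177-68845544) encodes the ubiquitin ligase that marks p53 for destruction and is itself switched on by p53, which closes a feedback loop. Its values were 1565, 1595, 1596 and 1494 normalized counts in unstimulated replicates 1 to 4, 1747, 1675, 1681 and 1725 in vehicle, and 1848, 1789, 1729 and 1735 under belinostat. The GSK-J4 replicates 21 to 24 held 2130, 2146, 2079 and 2217. The GSK-J4 libraries were the highest 4 of the 16 and the unstimulated libraries the lowest 4, with vehicle and belinostat overlapping in between. MDM2 rose 1.26-fold under GSK-J4 against vehicle (interval at 95% 1.19 to 1.33, log2 fold change 0.33, SE 0.04, DESeq2 adjusted p 1.36e-12, edgeR adjusted p 0.000579), a call made under all 13 other settings.

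Of all 9 genes MDM2 had the smallest standard errors. It was lower under belinostat than under GSK-J4 (log2 fold change -0.27, SE 0.04, DESeq2 adjusted p 1.9e-09), and the belinostat and vehicle groups did not differ beyond their spread (log2 fold change 0.06, SE 0.04, DESeq2 adjusted p 0.578). Against unstimulated cells MDM2 rose by 0.18 (SE 0.04, DESeq2 adjusted p 0.000287) on the log2 scale under belinostat and by 0.46 (SE 0.04, DESeq2 adjusted p 7.85e-26) under GSK-J4. In vehicle its log2 fold change against unstimulated cells was 0.13 (SE 0.04), with every vehicle library above every unstimulated library, yet the DESeq2 adjusted p was 0.0897 and the edgeR adjusted p 0.187. Of the 31-base words in its annotated transcripts, the unit by which kallisto assigns reads, 17.7% also occur in transcripts of other genes, and its estimated count was whole in 1 of 16 libraries, so part of its count was assigned by estimation.

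GADD45A (ENSG00000116717.13, chr1:67685201-67688334) encodes a small stress protein induced by p53 that acts in growth arrest and DNA repair. It stood at 734, 594, 604 and 562 normalized counts in unstimulated replicates 1 to 4 and at 611, 581, 586 and 602 in vehicle. Belinostat replicates 17 to 20 held 777, 504, 591 and 524, and GSK-J4 replicates 21 to 24 held 734, 718, 719 and 797. All GSK-J4 libraries lay above all vehicle libraries, but unstimulated replicate 1 and belinostat replicate 17 reached the same height. Under GSK-J4 the log2 fold change against vehicle was 0.32 (SE 0.12) with a DESeq2 adjusted p of 0.161 and an edgeR adjusted p of 0.244, so the gene was not called, and over 13 other settings the adjusted p ran from 0.00017 in a fit of these 2 groups alone to 0.44. The log2 fold change of belinostat against vehicle was 0.01 (SE 0.12, DESeq2 adjusted p 0.983), and -0.14 without belinostat replicate 17. For belinostat against GSK-J4 it was -0.31 (SE 0.12, DESeq2 adjusted p 0.0616), and without belinostat replicate 17 GADD45A was called at -0.46 (DESeq2 adjusted p 9.62e-06). GADD45A shares no 31-base word with any other gene.

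TP53I3 (ENSG00000115129.14, chr2:24077433-24085861), also known as PIG3, is a p53 target that encodes an oxidoreductase linked to oxidative stress and cell death. Its values were 862, 779, 794 and 794 normalized counts in unstimulated replicates 1 to 4, 737, 747, 750 and 807 in vehicle, 765, 804, 850 and 841 under belinostat and 894, 754, 860 and 811 under GSK-J4. The 4 groups overlapped. TP53I3 was not called in any of the 6 comparisons, and its log2 fold changes against vehicle were 0.10 (SE 0.07) under belinostat and 0.13 (SE 0.07) under GSK-J4, with DESeq2 adjusted p of 0.517 and 0.504.

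**Figure D2:**
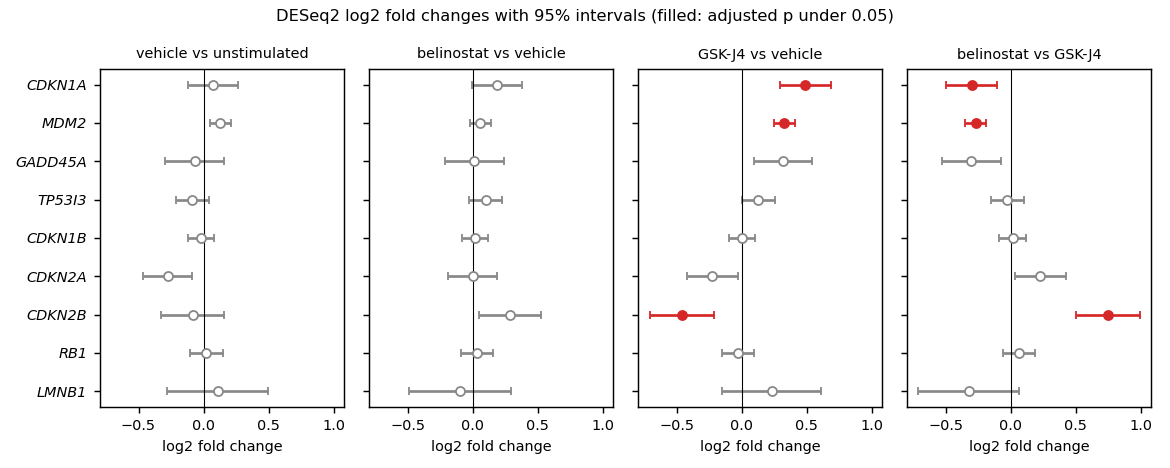
DESeq2 log2 fold changes (points, horizontal axis) of the 9 genes in 4 comparisons, with 95% intervals as bars and filled points where the adjusted p was under 0.05. In GSK-J4 against vehicle CDKN1A (0.49) and MDM2 (0.33) lie right of 0 and CDKN2B (-0.46) left of it, and no point is filled in vehicle against unstimulated cells or in belinostat against vehicle.

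Of 9 genes that regulate p53, MDM4 and ATM among them, none was called in vehicle against unstimulated cells or in GSK-J4 against vehicle. Under belinostat against vehicle the kinase gene CHEK2, which passes the DNA damage signal to p53, fell by 0.54 (SE 0.13, DESeq2 adjusted p 0.00153) on the log2 scale.

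A list of 25 further p53 targets was followed beside CDKN1A and MDM2. DESeq2 called 1.92% of all tested genes in GSK-J4 against vehicle, 6.26% in belinostat against vehicle and 12.2% in belinostat against GSK-J4. Against unstimulated cells it called 1.74% in vehicle, 10.3% under belinostat and 5.55% under GSK-J4. Under GSK-J4 against vehicle 4 of the 25 were called higher and none lower, 23 had a positive log2 fold change, and the median was 0.15, against -0.0025 over all genes tested. The called genes were SPATA18, which acts in mitochondrial quality control (0.43, SE 0.11, DESeq2 adjusted p 0.00676), DDB2, a sensor of ultraviolet damage (0.38, SE 0.08, DESeq2 adjusted p 0.00118), FDXR, a mitochondrial reductase (0.36, SE 0.10, DESeq2 adjusted p 0.0181), and AEN, a nuclease of cell death (0.28, SE 0.07, DESeq2 adjusted p 0.00965). GDF15 had the largest log2 fold change of the 25 (1.06, SE 0.33) and was not called (DESeq2 adjusted p 0.0565). The SE of GDF15 comes from the fit of all 16 libraries. Its normalized counts had an SD of 214.5 under belinostat, 23 in vehicle and 58.9 under GSK-J4. GSK-J4 against vehicle was not refitted with only belinostat replicate 17 left out. By edgeR 1 of the 25 was called, DDB2 (adjusted p 0.0279). Under belinostat against vehicle 1 was called higher and 2 lower, with a median of 0.08 against 0.0029. ZMAT3, an RNA-binding protein, rose by 0.20 (SE 0.06, DESeq2 adjusted p 0.0229), a call that edgeR did not make (adjusted p 0.0575) and that stood at 0.13 without belinostat replicate 17 (DESeq2 adjusted p 0.0416), whereas PLK2, a stress-responsive kinase, fell by 0.70 (SE 0.20, DESeq2 adjusted p 0.00836) and FAS, the death receptor, fell by 0.32 (SE 0.07, DESeq2 adjusted p 0.000592) on the log2 scale. Without belinostat replicate 17, which also held the highest CDKN1A, 3 were called higher and 3 lower, with GDF15 at -0.40 and PLK2 at -0.89, and the median was -0.07. In vehicle against unstimulated cells none of the 25 was called and the median was 0.02. Belinostat against GSK-J4 called 1 higher and 6 lower, with a median of -0.15. Among the called genes PLK2 (-0.93), DDB2 (-0.41), FDXR (-0.40) and FAS (-0.33) were furthest down. Without belinostat replicate 17 that comparison called 2 higher and 12 lower, with GDF15 at -1.46 and PMAIP1 at -1.02. The median was -0.23, against 0.00017 over all genes tested. The share of all genes called in the fits without this library is not given here. A change in the number called is therefore not read as particular to these genes. Against unstimulated cells 7 were called higher and none lower under GSK-J4, led by PMAIP1 (1.09), PLK2 (0.80), DDB2 (0.46) and SPATA18 (0.43). By edgeR 6 were called higher there, PMAIP1 not among them (1.08, adjusted p 0.0518). Under belinostat 5 were called higher and 1 lower against unstimulated cells. Without belinostat replicate 17 these counts were 4 and 1, and the median went from 0.07 to -0.01. POLH was lost, TNFRSF10B went from 0.26 to 0.14, and the lower call was GDF15 (-0.50) in place of BTG2.

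**Figure D3:**
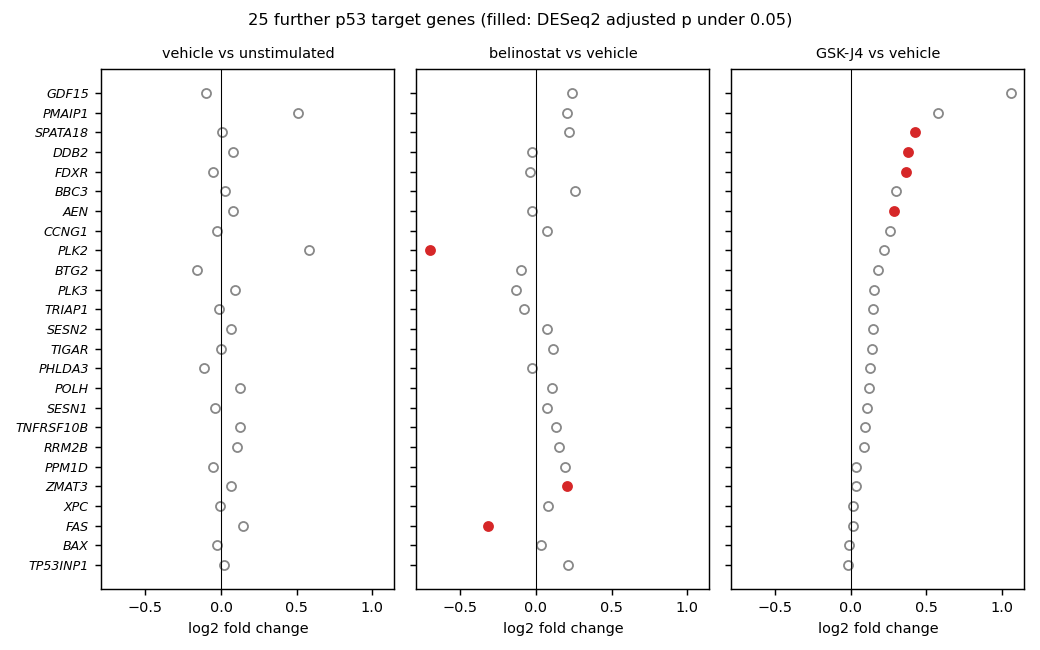
DESeq2 log2 fold changes (horizontal axis) of 25 further p53 targets in 3 comparisons, ordered by their value in GSK-J4 against vehicle, with filled points where the adjusted p was under 0.05. In GSK-J4 against vehicle 23 of the 25 points lie right of 0 and 4 are filled, whereas belinostat against vehicle has 1 filled point right of 0 and 2 left of it.

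CDKN1B (ENSG00000111276.12, chr12:12685498-12722369) encodes p27, an inhibitor of cyclin-dependent kinases that is controlled largely through the stability of its protein. Its level was close to constant, from 970 normalized counts in belinostat replicate 19 to 1115 in belinostat replicate 17, with means of 1047 ± 33.4 in unstimulated cells, 1035 ± 24.7 in vehicle, 1047 ± 59.6 under belinostat and 1038 ± 30.1 under GSK-J4 (SD, n = 4 each). The groups overlapped in every comparison. Its log2 fold change against vehicle was 0.02 (SE 0.05, fold interval at 95% 0.944 to 1.09) under belinostat and 0.00 (SE 0.05, fold interval 0.935 to 1.08) under GSK-J4, and its lowest DESeq2 adjusted p over the 6 comparisons was 0.928. Of the 3 other inhibitor genes followed, CDKN1C, which encodes p57, fell in vehicle against unstimulated cells by 0.28 (SE 0.07, DESeq2 adjusted p 0.0104) on the log2 scale, and neither it nor CDKN2C or CDKN2D was called against vehicle under either compound.

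CDKN2A and CDKN2B, the INK4 genes, lie next to each other on chromosome 9. CDKN2A (ENSG00000147889.18, chr9:21967752-21995301) encodes p16, a blocker of CDK4 and CDK6, and in another reading frame ARF, which restrains MDM2. CDKN2B (ENSG00000147883.12, chr9:22002903-22009305) encodes p15, a close relative of p16. The CDKN2A row sums transcripts of p16 and ARF, which the table does not tell apart. The genes share 70 words of 31 bases, among 4030 in the transcripts of CDKN2A and 3993 in those of CDKN2B. A read whose words all lie among these 70 cannot be assigned to either gene by its own sequence. A further 536 words of CDKN2A occur in the antisense gene CDKN2B-AS1. The estimated CDKN2A count was whole in 1 of 16 libraries, within a tolerance of 0.01, while the sum of CDKN2A and CDKN2B was whole in 14 of 16. Some reads were thus divided between the genes by estimation. CDKN2A took from 33.5% to 54.7% of the sum, and how much of this range comes from the division was not tested. The values of each gene are therefore uncertain beyond their standard errors, and the sum, an alternative added after the values were seen, is given beside them.

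CDKN2A was measured at 453, 390, 352 and 366 normalized counts in unstimulated replicates 1 to 4, 322, 317, 327 and 325 in vehicle, 362, 320, 314 and 293 under belinostat and 305, 245, 280 and 272 under GSK-J4. Each GSK-J4 library was below each vehicle library, and each vehicle library below each unstimulated library, although neither step was called. The log2 fold change was -0.27 (SE 0.10, DESeq2 adjusted p 0.145) in vehicle against unstimulated cells and -0.23 (SE 0.10, DESeq2 adjusted p 0.343) in GSK-J4 against vehicle. GSK-J4 against unstimulated cells gave -0.50 (SE 0.10, DESeq2 adjusted p 2.78e-05), a call made under all 13 other settings. In belinostat against unstimulated cells CDKN2A was called at -0.28 (SE 0.10, DESeq2 adjusted p 0.0452), with overlapping groups, and the call was lost under 9 of 13 other settings, with an edgeR adjusted p of 0.0516. It was lost without unstimulated replicate 1 (-0.20), 2 (-0.28) or 4 (-0.30) and without belinostat replicate 18 (-0.27), 19 (-0.26) or 20 (-0.23). Belinostat and vehicle had means of 322 ± 28.9 and 323 ± 4.21 (SD, n = 4 each).

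CDKN2B stood at 375, 478, 563 and 441 normalized counts in unstimulated replicates 1 to 4 and at 415, 454, 444 and 442 in vehicle. Belinostat replicates 17 to 20 held 432.5, 617, 515 and 581, and GSK-J4 replicates 21 to 24 held 363, 300.0, 309.9 and 300.8. The GSK-J4 libraries were the 4 lowest of all 16, and 3 of the 4 belinostat libraries were above every vehicle library. Under GSK-J4 against vehicle CDKN2B fell by 0.46 (SE 0.13, DESeq2 adjusted p 0.0183) on the log2 scale, but edgeR gave an adjusted p of 0.0901, and the DESeq2 call was lost when vehicle replicate 14 (-0.45), 15 (-0.46) or 16 (-0.46) was left out, and when GSK-J4 replicate 22 (-0.43), 23 (-0.45) or 24 (-0.44) was. Under belinostat against vehicle its log2 fold change was 0.29 (SE 0.12, DESeq2 adjusted p 0.181), and without belinostat replicate 17 it was called at 0.38 (DESeq2 adjusted p 0.0188). The compounds differed from each other, with CDKN2B 1.68-fold higher under belinostat than under GSK-J4 (interval at 95% 1.42 to 1.99, log2 fold change 0.75, SE 0.13, DESeq2 adjusted p 1.1e-07), a call made under all 13 other settings. GSK-J4 against unstimulated cells gave -0.55 (SE 0.13, DESeq2 adjusted p 0.000772), likewise called under all 13.

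The sum of both genes averaged 855 ± 47.5 normalized counts in unstimulated cells, 761 ± 16.6 in vehicle, 858 ± 61.5 under belinostat and 594 ± 52.8 under GSK-J4 (SD, n = 4 each). As a single row it fell by 0.36 (SE 0.07, DESeq2 adjusted p 0.000223, edgeR adjusted p 0.0169) on the log2 scale under GSK-J4 against vehicle, with the highest GSK-J4 library at 668 and the lowest vehicle library at 737. Belinostat exceeded GSK-J4 by 0.53 (SE 0.07, DESeq2 adjusted p 2.73e-11), and GSK-J4 stood below unstimulated cells (log2 fold change -0.53, SE 0.07, DESeq2 adjusted p 1.1e-10). The sum was not called in vehicle against unstimulated cells (-0.17, SE 0.07, DESeq2 adjusted p 0.336), in belinostat against vehicle (0.17, SE 0.07, DESeq2 adjusted p 0.155) or in belinostat against unstimulated cells (0.00, SE 0.07, DESeq2 adjusted p 0.988). Without belinostat replicate 17 the sum stood at 0.21 (DESeq2 adjusted p 0.0557) in belinostat against vehicle and at 0.57 (DESeq2 adjusted p 5.18e-12) in belinostat against GSK-J4. The lower CDKN2A in belinostat against unstimulated cells was thus not seen in the sum, to which CDKN2B adds at 0.205 (SE 0.12, DESeq2 adjusted p 0.342). Of 9 polycomb genes and H3 lysine 27 demethylases known to control this locus, EZH2, KDM6A and KDM6B among them, none was called in either compound against vehicle or in vehicle against unstimulated cells.

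**Figure D4:**
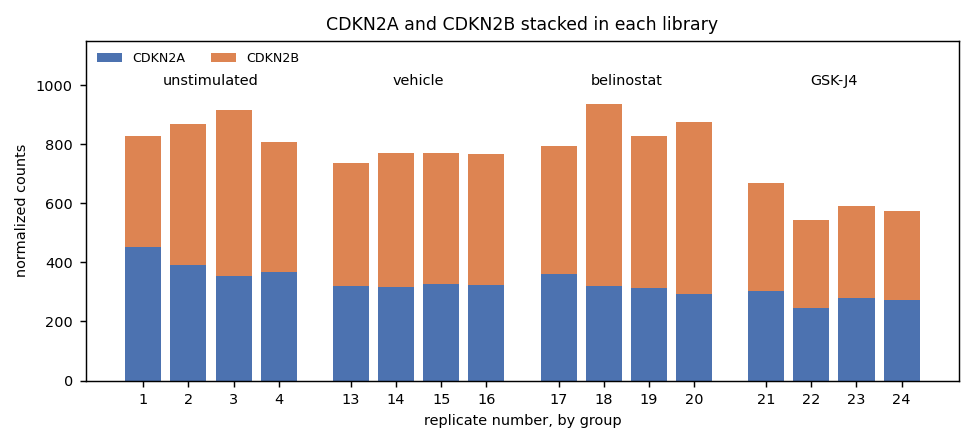
Normalized counts of CDKN2A (blue) and CDKN2B (orange) stacked for each of the 16 libraries, with replicate numbers along the horizontal axis and groups named above. The 4 GSK-J4 stacks, at 545 to 668, are the lowest, and the border between the colours moves within the unstimulated group from 54.7% CDKN2A in replicate 1 to 38.5% in replicate 3.

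RB1 (ENSG00000139687.16, chr13:48303744-48599436) encodes the retinoblastoma protein, on which the kinase inhibitors converge. It was measured between 951 and 1093 normalized counts in unstimulated cells, 973 and 1110 in vehicle, 963 and 1112 under belinostat and 974 and 1037 under GSK-J4. The ranges overlapped in all comparisons, and RB1 was never called, with log2 fold changes against vehicle of 0.03 (SE 0.06, fold interval at 95% 0.938 to 1.11) under belinostat and -0.03 (SE 0.06, fold interval 0.898 to 1.07) under GSK-J4. Among 14 genes of the RB family, E2F factors, G1 cyclins and their kinases, the calls against vehicle and in vehicle fell on D-type cyclins. Over all tested genes 1.74% were called in vehicle against unstimulated cells, 6.26% in belinostat against vehicle and 1.92% in GSK-J4 against vehicle. CCND1 rose by 0.35 (SE 0.06, DESeq2 adjusted p 1.59e-05) and CCND2 fell by 0.37 (SE 0.10, DESeq2 adjusted p 0.0192, edgeR adjusted p 0.0581) on the log2 scale in vehicle against unstimulated cells, the other 12 not being called. CCND2 rose by 0.98 (SE 0.10, DESeq2 adjusted p 3.4e-20) under belinostat against vehicle, the only call among 13 tested (CCNE1 joined it without belinostat replicate 17), and none of 12 tested was called under GSK-J4 against vehicle.

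LMNB1 (ENSG00000113368.12, chr5:126776623-126837020) encodes lamin B1, a protein of the nuclear lamina whose loss is a marker of senescence. It was scarce, at 48.2, 59.1, 45.3 and 56.6 normalized counts in unstimulated replicates 1 to 4, 60.0, 59.4, 60.5 and 45.2 in vehicle, 35.3, 68.4, 51.8 and 57.1 under belinostat and 64.1, 62.5, 68.1 and 69.2 under GSK-J4. The GSK-J4 libraries were above all vehicle and unstimulated libraries, and belinostat spanned nearly the whole range. LMNB1 was not called in any comparison, and its log2 fold change against vehicle was 0.23 (SE 0.19, fold interval at 95% 0.902 to 1.52, DESeq2 adjusted p 0.796) under GSK-J4 and -0.10 (SE 0.20, fold interval 0.714 to 1.23, DESeq2 adjusted p 0.906) under belinostat. The interval under GSK-J4 does not exclude a change of the size seen for CDKN1A.

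Of 6 other genes of the lamina and nuclear proteins that decline in senescence, 3 were called lower in belinostat against vehicle and none in GSK-J4 against vehicle or vehicle against unstimulated cells. In the same order, 6.26%, 1.92% and 1.74% of all tested genes were called, in either direction. LMNA, which encodes lamins A and C, fell from 9814 ± 166 to 8627 ± 117 normalized counts under belinostat (SD, n = 4 each), or -0.19 as log2 (SE 0.05, DESeq2 adjusted p 0.00594, edgeR adjusted p 0.053). LBR, the lamin B receptor, fell by 0.35 (SE 0.09, DESeq2 adjusted p 0.00455), and TMPO, a lamina-associated protein, by 0.24 (SE 0.06, DESeq2 adjusted p 0.000801), and all 3 calls were kept without belinostat replicate 17. LMNB2, the gene of lamin B2, was not called in any comparison, at -0.04 (SE 0.05) under belinostat and 0.02 (SE 0.05) under GSK-J4 on the log2 scale against vehicle.

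Genes of DNA replication and mitosis give the state of the cycle that these regulators control. Of all tested genes, 1.92% were called in GSK-J4 against vehicle, 6.26% in belinostat against vehicle and 1.74% in vehicle against unstimulated cells. Under GSK-J4 against vehicle 3 of 15 tested of 18 were called higher and none lower, with a median log2 fold change of 0.28 against -0.0025 over all genes tested. MKI67, the proliferation marker, rose from 23.2 ± 6.12 to 62.2 ± 21.1 normalized counts (SD, n = 4 each, log2 fold change 1.42, SE 0.36, DESeq2 adjusted p 0.00843), TOP2A, a topoisomerase of dividing cells, rose by 0.78 (SE 0.21, DESeq2 adjusted p 0.0195) and TYMS, which makes thymidylate, by 0.66 (SE 0.11, DESeq2 adjusted p 1.85e-06) on the log2 scale. By edgeR 1 of 17 tested was called, TYMS. CDKN1A and these 3 genes were thus called higher by DESeq2 in the same comparison, at low counts for MKI67. In bulk RNA a change in the share of cells that express a gene and a change in RNA per cell cannot be told apart. Under belinostat against vehicle none of 17 tested was called, MKI67 standing at 0.47 (SE 0.37, DESeq2 adjusted p 0.635), and without belinostat replicate 17 CDK1, the mitotic kinase, was called at -0.52. Vehicle against unstimulated cells called 2 of 18 higher, RRM2 (1.23, SE 0.36, DESeq2 adjusted p 0.0357) and TOP2A (0.81, SE 0.23, DESeq2 adjusted p 0.0281), with MKI67 at 0.96 (SE 0.40, DESeq2 adjusted p 0.336), and edgeR called none of 17 tested.

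A list of 17 factors that senescent cells release, many of them also direct cytokine targets, was followed beside the 9 genes. The share of all tested genes called was 1.74% in vehicle against unstimulated cells, 6.26% in belinostat against vehicle and 1.92% in GSK-J4 against vehicle. In vehicle against unstimulated cells 5 of 16 tested were called higher and none lower, led by CXCL8 (2.36, SE 0.22), MMP3 (1.60, SE 0.36), MMP1 (1.45, SE 0.31) and CXCL1 (0.75, SE 0.13), in the comparison in which none of the 9 was called. Belinostat against vehicle called 2 of 14 tested higher and 6 lower, with CCL2 at -2.29 (SE 0.15), MMP1 at -1.58 (SE 0.31), CXCL8 at -0.75 (SE 0.21) and IGFBP3 at 1.69 (SE 0.23), and the counts were the same without belinostat replicate 17. GSK-J4 against vehicle called 1 of 14 tested, IGFBP5 (0.22, SE 0.07, DESeq2 adjusted p 0.0424), which edgeR did not call.

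The genes most like each called regulator were sought among 11732 genes with a mean of at least 50 normalized counts, by Pearson's r over the 16 libraries on DESeq2's variance-stabilised scale. The libraries share groups and 1 cell line, so these values describe the 16 libraries and carry no test. Among the genes most like CDKN1A were KLHL5 (r = 0.929) and GEM (0.925). MDM2 was most like CYP2S1 (0.97), KYNU (0.937) and ABCG1 (0.932), and KYNU, a kynureninase, averaged 45.6 normalized counts in unstimulated cells, 58.4 in vehicle, 65.2 under belinostat and 223.9 under GSK-J4. CDKN2B was most like PIK3IP1 (0.941), CHN1 (0.94) and AKAP6 (0.928), and CHN1 averaged 2500, 2423, 2859 and 1839 in the same order. For CDKN2A they were NDUFAF4 (0.892), PPIG (0.875) and VPS51 (0.868). Among the 9 genes themselves r was 0.87 for CDKN1A with MDM2, 0.79 for CDKN1A with GADD45A, -0.69 for CDKN1A with CDKN2B and -0.83 for CDKN2B with GADD45A.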

How the data were processed

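Bulk RNA-seq libraries of Ccd18-Co (16 libraries, 4 groups of 4) were grouped by the labels. Per the study's methods and the submitters' processing notes, the authors checked reads with FastQC 0.11.9 and MultiQC 1.14 and quantified them with kallisto 0.48.0 at default settings, which splits reads shared between transcripts by estimation and does not use strand. What the authors deposited is a table of kallisto's estimated counts, summed by symbol and without scaling to library size. The transcriptome release and how transcripts were summed are not given in the sources used here. Totals were 14.4 to 19.5 M per library, 28.0% of the values were not whole, and no column was left unused (0).

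Estimated counts were rounded to whole numbers. DESeq2 1.42.0 in R 4.3.3, the tool named in the study's methods, gave the main Wald tests, with all 16 libraries in 1 fit, median-of-ratios size factors, default independent filtering and Benjamini-Hochberg adjustment over all genes tested. Alternatives were edgeR's quasi-likelihood test (edgeR 4.0.16), TMM and total-count scaling, a filter of at least 10 counts in at least 4 libraries, and the 2 groups alone. Each library of the groups compared was also left out in turn, while libraries of the other groups were kept. Summing CDKN2A and CDKN2B, and recounting the lists without belinostat replicate 17 and by edgeR, were added after the values were seen. DESeq2 and edgeR were tested on simulated data. Normalized counts are given as mean ± SD.

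The 9 genes, the gene lists and the comparisons were chosen with earlier results of these data known. All 9 genes are named in every comparison or by their range. From each list the text gives counts, the median for the main lists and up to 4 called genes with the largest change, with LMNA, LMNB2 and MKI67 always. For each called gene of the 9, the 3 most alike genes are named. Some items that these rules name are not reported here. Examples of genes not called were added for context. Gene positions and shared words of 31 bases come from GENCODE on GRCh38, and promoter windows from the RefSeq table on GRCh38.p14. Where the text names no tool, adjusted p is DESeq2's.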

Additional observations from a re-analysis of the deposited data

Results flagged for a closer look

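In 36 sets of 4 libraries (9 genes in 4 groups), 2 had a library whose gap to the nearest of the others, divided by the range of the group, was above Dixon's critical value at 95%. Chance alone flags about 1 in 20 such sets. CDKN2B in GSK-J4 replicate 21 was 363.1 normalized counts, against 300.0 to 309.9 in the other GSK-J4 libraries (ratio 0.844). This library lay on the side of vehicle, and without it the DESeq2 call of CDKN2B in GSK-J4 against vehicle was kept. LMNB1 in vehicle replicate 16 was 45.18 normalized counts, against 59.41 to 60.55 in the other vehicle libraries (ratio 0.926), and LMNB1 was not called with or without it. Belinostat replicate 17, which was highest of the 16 for CDKN1A, did not pass this rule for any of the 9 genes.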

How the results depend on the processing

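No paired analysis was possible because the groups share no replicate numbers. Over the values of each gene of the 9 under each other setting, 627 kept their direction and their side of the threshold, 24 lost a call and 6 gained one, and 45 changed sign without being called in either fit, such as GADD45A in belinostat against vehicle without belinostat replicate 17. No called value changed sign. The calls of CDKN1A and MDM2 in GSK-J4 against vehicle, of CDKN2B and MDM2 in belinostat against GSK-J4, of MDM2 in belinostat against unstimulated cells and of all 4 genes in GSK-J4 against unstimulated cells were kept under all 13 settings. Over all genes, edgeR called 166 in vehicle against unstimulated cells (DESeq2 282) and 91 in GSK-J4 against vehicle (DESeq2 253). A fit of the 2 groups alone called 542 in GSK-J4 against vehicle and 876 in belinostat against unstimulated cells (1461 with all groups). Of the 9 genes, 1 in place of 2 was called in belinostat against unstimulated cells under edgeR, under total-count scaling and in the fit of the 2 groups alone.

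Leaving out 1 library at a time gave 180 to 295 calls over all genes in vehicle against unstimulated cells (180 without unstimulated replicate 2) and 132 to 193 in GSK-J4 against vehicle, where the number fell by over 1.5 times when vehicle replicate 14 (139) or 15 (132) was left out, and when GSK-J4 replicate 21 (162), 22 (147) or 23 (137) was. Of the 9 genes it gave 0 to 1 called in belinostat against vehicle, the 1 being CDKN2B without belinostat replicate 17, and 1 to 2 in belinostat against unstimulated cells. CDKN1A in belinostat against unstimulated cells stood at 0.26 (DESeq2 adjusted p 0.078), and from 0.106 to 0.322 over the 13 other settings. It was called without belinostat replicate 18 (0.32) or 20 (0.31) only, fits that keep belinostat replicate 17. GADD45A in GSK-J4 against unstimulated cells was called without unstimulated replicate 1 (0.34) only. Without belinostat replicate 17 the median of the 25 p53 targets in belinostat against vehicle went from 0.08 to -0.07. The causes were not tested. TMM and total-count scaling moved the median of all genes by at most 0.018 on the log2 scale. With about 50 normalized counts a library, LMNB1 had standard errors of 0.19 to 0.20 on the log2 scale.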
